A study of Mus musculus with 4 samples.

Results

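The cells described here are 376 of the 6555 single cells kept from 4 mouse eyecup libraries, chosen by their measured transcripts of macrophage genes. A cell was a member when at least 1 UMI (a molecular identifier that counts 1 captured transcript) was found for at least 3 of 9 genes, C1qa, C1qb, C1qc, Csf1r, Mrc1, Cd68, Adgre1, Fcgr1 and Cd163. Members also had at least 300 genes detected, at most 30% of UMIs from mitochondrially encoded genes, fewer than 3 of 4 fibroblast genes (Col1a1, Col3a1, Dcn, Lum) and fewer than 2 of 4 lymphocyte genes (Cd3e, Cd3d, Cd79a, Cd79b). The summed UMIs of Rpe65, Rlbp1, Ttr, Rgr and Rdh5, genes of the retinal pigment epithelium (RPE), had to stay under 0.5% of a member's total.

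The tissue was the RPE with the choroid, the vascular layer behind it, from wild-type mice and from Vldlr-/- mice at 1 and 2 months of age. Vldlr encodes the very low density lipoprotein receptor, and mice without it are a model in which vessels grow from the retina towards the RPE. The front of the eye and the neural retina were removed, the remaining layers were scraped off the sclera and digested with collagenase A and Dispase II and then trypsin, dead cells were removed, and single cells were captured on the 10x Chromium and sequenced on a HiSeq 4000. Each genotype at each age is 1 library, so no difference below has a replicate check, and no p-value is given. The sources used here do not name the strain, the number of animals pooled or the deleted stretch of Vldlr. The library labelled Vldlr-/- is called the knockout library throughout.

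Macrophages of the choroid and RPE are tissue-resident phagocytes that take up debris, lipoproteins and dying cells and break them down in lysosomes. They secrete the complement component C1q, survive on signals through the Csf1 receptor, and lie along the choroidal vessels. In mouse models of retinal and choroidal vessel growth they gather at lesions together with monocytes that arrive from blood. Blood monocytes carry Csf1r, Cd68 and Adgre1 but little or no C1q.

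The 4 libraries held between 11194301 and 23070271 UMIs, and between 1140 and 2047 cells were kept in each. Members numbered 137 in the 1-month wild-type library, 111 in the 1-month knockout, 68 in the 2-month wild type and 60 in the 2-month knockout, with 1417000, 1050678, 595233 and 774869 UMIs in all. Libraries of 1 month and 2 months were counted with different Cell Ranger versions per the file headers, 6.0.2 and 7.0.1, so age and counting software cannot be told apart and ages are only set side by side. A single cell barcode occurred in 2 libraries, the knockouts of 1 and 2 months, and it was not a member. The targeted gene, Vldlr, had 3, 0, 9 and 0 UMIs in members (order: wild type and knockout at 1 month, then wild type and knockout at 2 months, as in every series of 4 values below). In the remaining kept cells Vldlr stood at 28.7, 43.1, 145 and 35.9 CPM (counts per 1e+06 UMIs), so the 1-month knockout was not the lower library of its pair, and 3′ tags from outside the deleted part would check nothing. The sex-linked genes Xist and Ddx3y were both found in members of all 4 libraries, but not at even levels. Xist stood at 163, 263, 435 and 345 CPM in members, and Ddx3y at 44.5, 15.2, 37.0 and 37.4. In the remaining kept cells Xist stood at 356, 692, 87.6 and 285 CPM, and Ddx3y at 39.0, 21.4, 64.9 and 43.4. The mix of sexes may thus differ between genotypes, and its part in the values below was not tested.

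The members made up 8.84% of the kept cells in the 1-month wild type (exact 95% binomial interval 7.48 to 10.4%), 6.10% in the 1-month knockout (5.05 to 7.30%), 3.32% in the 2-month wild type (2.59 to 4.19%) and 5.26% in the 2-month knockout (4.04 to 6.72%). The knockout share was thus the lower one at 1 month, where the intervals do not overlap, and the higher one at 2 months, where they do. All intervals here cover counting error only, and a share also depends on how the tissue was dissected and digested. At the edge of the rule, 61, 48, 12 and 5 members had exactly 3 of the 9 genes, and 29, 42, 100 and 75 cells stopped at 2. The conditions on other cell types removed 8, 10, 17 and 13 cells that had enough markers. At least 5 of the genes were found in 30, 32, 47 and 51 members. Membership at 1 month therefore rested mostly on few markers, and at 2 months mostly on many.

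The members were not 1 kind of cell. C1q is a secreted protein built from 3 chains, the products of the neighbouring genes C1qa, C1qb and C1qc, and 167 members had all 3 transcripts while 181 had none, 12 had 1 and 16 had 2. Members with at least 2 of the genes are called C1q-bearing below. They numbered 34, 36, 59 and 54. They were 24.8% of the members in the 1-month wild type (17.8 to 32.9%), 32.4% in the 1-month knockout (23.9 to 42.0%), 86.8% in the 2-month wild type (76.4 to 93.8%) and 90.0% in the 2-month knockout (79.5 to 96.2%). With each cell thinned to 1500 UMIs, which leaves 345 members, these shares were 21.2%, 23.2%, 71.9% and 78.9%. Among all other kept cells, 0.0708%, 0.117%, 0.910% and 1.48% had at least 2 C1q genes, against median depths of 5727.5, 4972, 8041 and 8695 UMIs.

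The other 103, 75, 9 and 6 members mostly carried monocyte genes, with UMIs of at least 2 of 10 monocyte genes in 103, 75, 9 and 4 of them. Plac8 was counted at 4407 UMIs in 99 of the 103 cells of the 1-month wild type and at 2164 UMIs in 68 of the 75 of the 1-month knockout. Ace and Treml4, genes of patrolling monocytes, had 828 and 341 UMIs in these wild-type cells and 458 and 241 in the knockout cells. Ly6c2 and Ccr2, genes of the inflammatory kind that leaves the blood, had 771 and 830 UMIs in the wild-type cells and 406 and 758 in the knockout cells. These counts are not on 1 scale, since the pools held 1251030 and 884519 UMIs. Scaled to CPM, 5 of the 10 monocyte genes were higher in the knockout and 5 lower, with a median log2 ratio of -0.04. The median cell held 4762 and 5397 CPM of 10 monocyte genes in the 1-month libraries, where the median C1q-bearing cell held 0 in both. So for 103 of 137 and 75 of 111 members at 1 month the label macrophage goes against C1q and stands beside monocyte genes. These cells, and the 9 and 6 without C1q at 2 months, are called C1q-negative members here, although 12 of them had UMIs of 1 C1q gene.

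**Figure D1:**
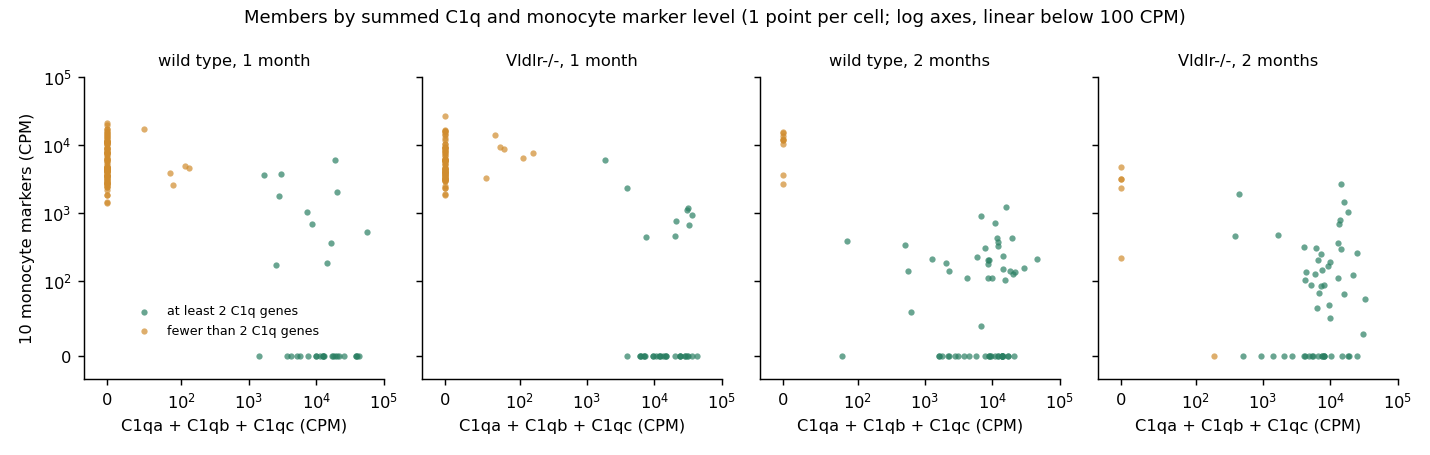
Each point is 1 member, placed by its summed CPM of C1qa, C1qb and C1qc and its summed CPM of 10 monocyte genes, on log axes that are linear below 100 CPM, with 1 panel per library. Most C1q-bearing cells lie low on the monocyte axis, though some reach 5998 CPM in the 1-month wild type and 5949 in the 1-month knockout, inside the range of the other members; those lie at or near 0 on the C1q axis and number 9 and 6 at 2 months.

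Seen as a share of all kept cells, C1q-bearing members were 2.19% (1.52 to 3.05%), 1.98% (1.39 to 2.73%), 2.88% (2.20 to 3.70%) and 4.74% (3.58 to 6.14%). The C1q-negative members were 6.65% (5.46 to 8.01%), 4.12% (3.26 to 5.14%), 0.440% and 0.526%. The lower member share of the knockout at 1 month lay in the C1q-negative cells, and the higher share at 2 months lay in the C1q-bearing cells. The plot of shares puts these values side by side. The split into C1q-bearing and C1q-negative members was made after the values had been seen, and the values below are given for both.

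**Figure D2:**
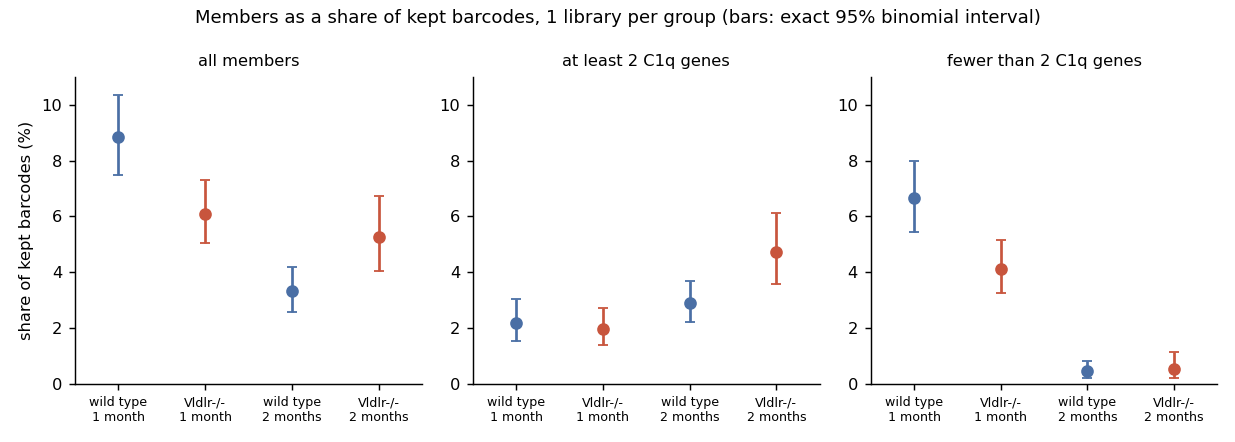
Members as a percentage of kept cells in each library, for all members, C1q-bearing members and the rest, with exact 95% binomial intervals that cover counting error only. C1q-bearing members run from 1.98% to 4.74% of kept cells, and the rest drop below 1% in both 2-month libraries.

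The genes of the rule showed the same division, as a description, since they chose the cells. C1qa, on chr4:136895917-136898803 (GRCm38), was counted at 836, 705, 2239 and 3307 UMIs in the members, and only 1, 1, 0 and 0 of these lay in C1q-negative cells. Mrc1, the mannose receptor of tissue macrophages, had 147, 89, 574 and 654 UMIs, and 138, 62, 572 and 647 of these lay in C1q-bearing cells. Csf1r, the receptor for Csf1, had 1098, 700, 353 and 494 UMIs, of which 948, 600, 23 and 14 lay in C1q-negative cells, so that these held most of it at 1 month and little at 2 months. Within the C1q-bearing cells the pooled level of C1qa was 5031, 4237, 4522 and 4718 CPM, with the 1-month wild type highest and the 1-month knockout lowest. The order depended on weighting. The median cell held 4599, 4962, 3935 and 2919 CPM, which turned the direction in both pairs.

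The depth behind these values was uneven. C1q-bearing cells had a median of 2485.5, 2373.5, 6278 and 11086 UMIs, and their pools summed to 165970, 166159, 495145 and 700944 UMIs. The deepest cell of the 1-month knockout held 40357 of its 166159 UMIs. Values without the cell richest in a gene are given where that cell moved them.

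Small numbers of transcripts of other cell types were present in the C1q-bearing pools. Endothelial genes summed to 3, 5, 482 and 228 UMIs, with 468 and 185 of the 2-month UMIs in 2 cells per library. Pericyte and smooth muscle genes summed to 0, 3, 307 and 114 UMIs, with 301 and 80 in 2 cells. Rod genes summed to 22, 92, 2463 and 19 UMIs, of which 2451 lay in 2 cells of the 2-month wild type. Haemoglobin and other red blood cell genes summed to 47, 87, 3 and 684 UMIs, of which 677 lay in 2 cells of the 2-month knockout. RPE genes summed to 28, 10, 138 and 156 UMIs, and fibroblast genes to 10, 11, 11 and 13. The microglia list, whose genes are partly shared by all tissue macrophages, stood at 2862, 2829, 2632 and 3174 CPM. Of the genes most tied to microglia, P2ry12 had 17, 11, 64 and 125 UMIs in 9, 5, 24 and 26 cells, and Tmem119 had 7, 3, 15 and 27 in 5, 2, 9 and 11. Microglia of the retina and macrophages of the choroid cannot be told apart by these sums over whole pools. The clusters described at the end of the results differed in the microglia list, which reached 6971 CPM in 1 cluster of 11 cells.

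The question that the design poses is how macrophages of the Vldlr-/- eyecup differ from those of wild type at each age. A gene was measured with at least 30 UMIs in the members of the pair and called at a 2-fold difference of CPM, with 0.5 counts added before taking log2. Of 7081 genes measured in all members at 1 month, 283 were called, 4.0%, with 103 higher in the knockout (1.45%) and 180 lower (2.54%). At 2 months 526 of 6130 were called, 8.58%, with 203 higher (3.31%) and 323 lower (5.27%). Of 5404 genes measured at both ages, 16 were higher at both (0.296%) and 15 lower at both (0.278%). In C1q-bearing members 313 of 1555 genes were called at 1 month, 20.1%, with 131 higher (8.42%) and 182 lower (11.7%). At 2 months 492 of 5605 were called, 8.78%, with 190 higher (3.39%) and 302 lower (5.39%). Of 1541 measured at both ages, 12 were higher at both (0.779%) and 8 lower (0.519%). The median log2 ratio over all genes was 0.09 at 1 month and -0.01 at 2 months in the C1q-bearing cells, and -0.07 and -0.02 in all members.

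Lysosomal genes stood higher as a group in C1q-bearing knockout members at both ages. Of 25 measured genes of the lysosome list, 18 were higher and 7 lower at 1 month (median log2 ratio 0.59, against 54.1% of all genes higher). Of these, 6 reached 2-fold upwards and 2 downwards, beside 8.42% and 11.7% of all genes. At 2 months 25 of 28 were higher and 3 lower (median 0.53, against 49.5% of all genes higher). Of these, 3 reached 2-fold upwards and 0 downwards, beside 3.39% and 5.39% of all genes. The list summed to 21094 CPM in the 1-month wild type, 34004 in the 1-month knockout, 21370 in the 2-month wild type and 33954 in the 2-month knockout. Both wild-type pools thus stood near 1 level and both knockout pools near another, across a difference in age and counting software.

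Cathepsins were a part of that sum. Cathepsin D, the main aspartic protease of the lysosome, is encoded by Ctsd on chr7:142375911-142388038, minus strand. Its level was 2910 CPM in the 1-month wild type, 6289 in the 1-month knockout, 3617 in the 2-month wild type and 7925 in the 2-month knockout, from 483, 1045, 1791 and 5555 UMIs. Both knockout libraries lay above both wild-type libraries. The log2 ratio was 1.11 (95% interval of counting error 0.95 to 1.27) at 1 month and 1.13 (1.05 to 1.21) at 2 months. Ctsb, the cysteine protease cathepsin B, on chr14:63122462-63145923, stood at 2398, 5814, 2668 and 5358 CPM, log2 ratios of 1.28 and 1.01, again with both knockouts above both wild types. Ctsz had 187, 279, 579 and 1433 UMIs (0.57 and 0.81), and Ctsl, another cysteine protease, had 56, 203, 254 and 544 UMIs (1.85 and 0.60).

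The membrane and helper proteins of the lysosome leaned the same way. Lamp1, which coats the inside of the lysosomal membrane, had 136, 278, 367 and 844 UMIs (log2 ratios 1.03 and 0.70). Psap, the precursor of the saposins that help to break down sphingolipids, had 283, 399, 929 and 2008 UMIs (0.49 and 0.61). Cd63, a tetraspanin of late endosomes, had 160, 299, 668 and 1334 UMIs (0.90 and 0.50). Lipa, the acid lipase that frees cholesterol from lipoproteins taken up, had 28, 64, 170 and 360 UMIs (1.18 and 0.58). Atp6v1a, a subunit of the pump that acidifies the lysosome, had 20, 43, 86 and 160 UMIs (1.08 and 0.39). These genes differ in their function within the organelle, and each was higher in the knockout library of both pairs. Lamp1, Lipa and Atp6v1a, and Ctsl above, were named after their values had been seen. Their shared direction therefore adds nothing to the counts of the whole list, in which 7 of 25 genes were lower at 1 month.

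Some lysosomal genes did not follow. Ctsc, which activates granule proteases, had 203, 91, 259 and 380 UMIs, log2 ratios of -1.15 and 0.05. Asah1, the acid ceramidase, had 67, 28, 115 and 166 UMIs (-1.25 and 0.03). Ctsc and Asah1 were thus lower at 1 month and level at 2 months.

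**Figure D3:**
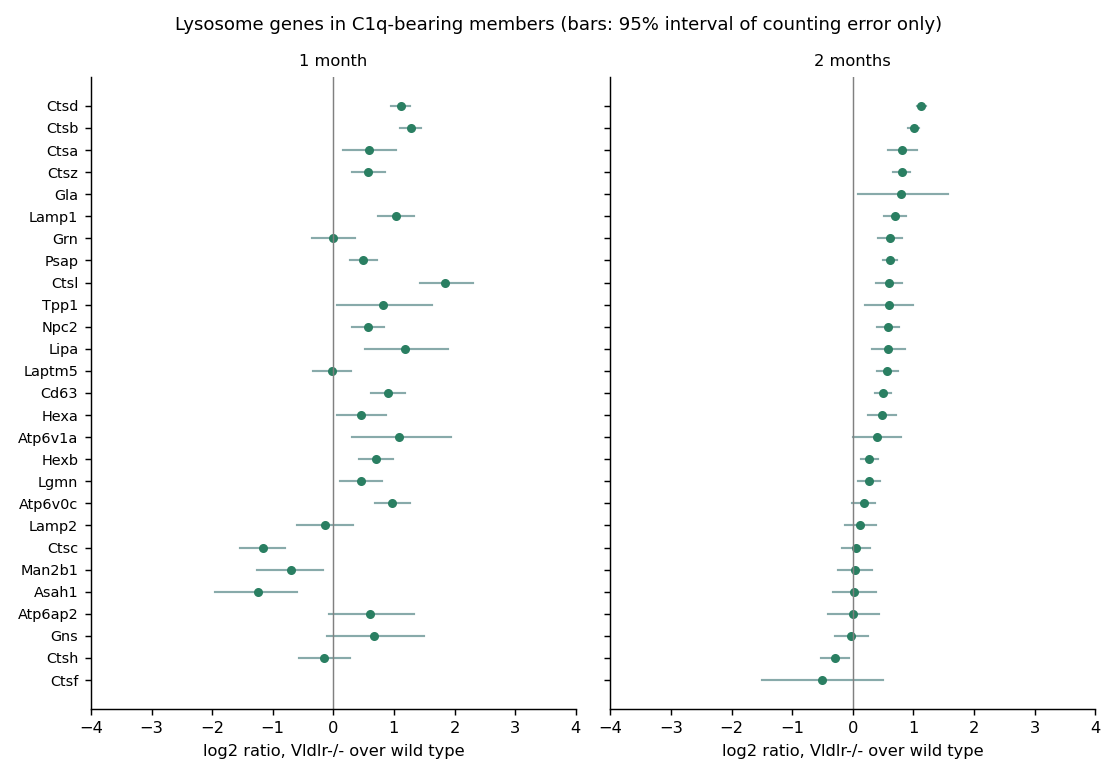
Log2 ratio of CPM, knockout over wild type, for the genes of the lysosome list that are reported here, in C1q-bearing members at 1 month and at 2 months, with 95% intervals of counting error and a line at 0; genes under 30 UMIs in a pair have no point there. Ctsd and Ctsb lie above 1 at both ages, and Ctsc and Asah1 lie below -1 at 1 month and near 0 at 2 months.

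The size of the difference depended on how cells were weighted. With each C1q-bearing cell given equal weight, the list medians were 0.56 and 0.25, and without the 5% of members with the most UMIs they were 0.37 and 0.25. With cells thinned to 1500 UMIs the 2-month median was 0.10. Without 1 cluster of cells, led by Spp1 and Gpnmb and described below, the 1-month median was 0.09, the same as over all genes; 0 cells of that cluster lay in the 2-month libraries. The median cell gave the same order: Ctsd stood at 562, 1434, 1274 and 3515 CPM, Ctsb at 1617, 3562, 2404 and 4342, and Psap at 919, 1391, 1375 and 2184. The quartiles over cells overlapped in every pair, as the plot of levels per cell shows.

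**Figure D4:**
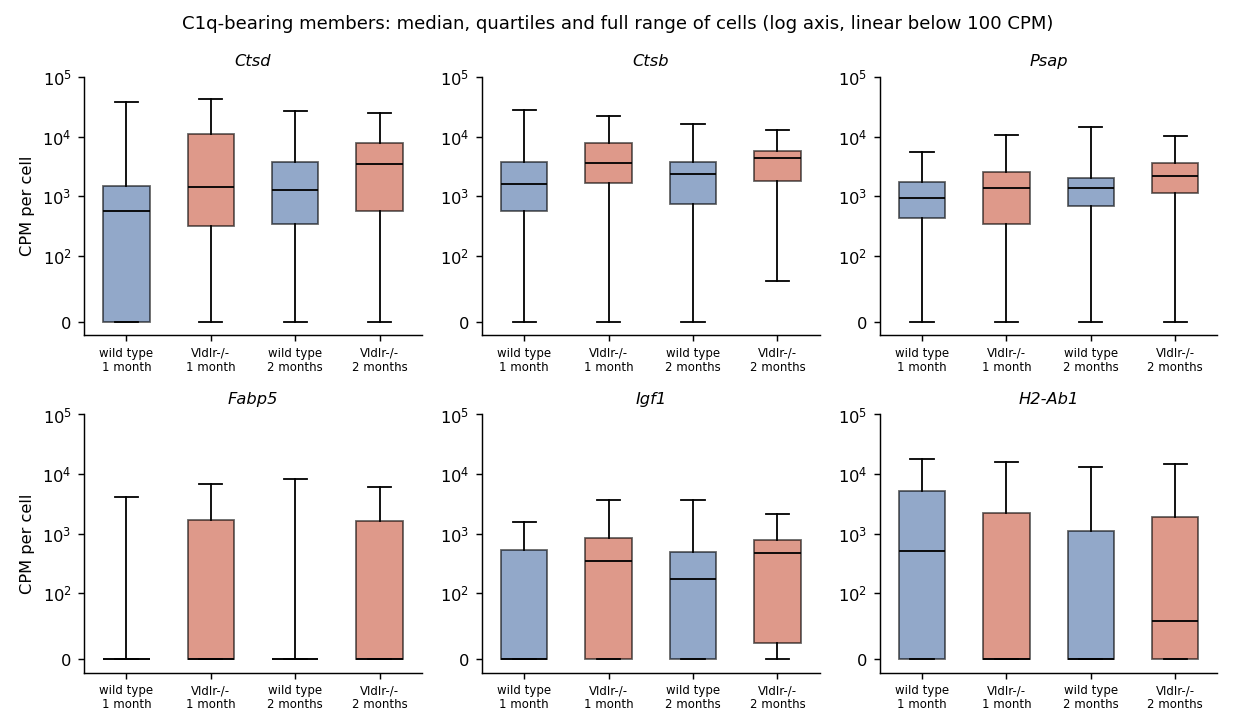
CPM per C1q-bearing member for Ctsd, Ctsb, Psap, Fabp5, Igf1 and H2-Ab1 in each library, with the median as a line, the quartiles as a box and the full range of cells as whiskers, on a log axis that is linear below 100 CPM. The median of Ctsd is 562 and 1434 CPM at 1 month and 1274 and 3515 at 2 months, with the knockout above wild type in each pair, while the boxes overlap.

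The same list was set beside cells that are not members. In fibroblast-marker cells 19 of 28 genes were higher in the knockout at 1 month (median 0.07) and 24 of 26 at 2 months (0.27), so a lean upwards at 2 months was also present there. In all kept cells outside the members 15 of 28 were higher at 1 month (0.07) and 10 of 28 at 2 months (-0.14), where the medians over all genes were 0.03 and 0.00, and 0.10 and 0.24. No test of the difference between cell groups was possible with 1 library per group.

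Many lysosomal genes share a promoter letter sequence, TCACGTGA, that transcription factors of the MiT family are known to bind, so the 250 bases before each RefSeq start (GRCm38.p6) were searched for it. It reads the same on both strands. It was found for 4 of the 22 lysosome-list genes that have a window, 18.2%, and for 245 of 27025 genes, 0.907%. It was found for 0 of 16 genes of the lipid list that have a window. The motif was chosen after the values of the list had been seen, and a match is only a description of letters. Since it is known from lysosomal genes, its higher share in this list does not depend on the present data. That share says nothing about the difference between libraries. The 60 bases that hold it are shown for the 4 genes, 5′ to 3′ on the gene's own strand, with the motif in capitals. They lie at chr2:164833713-164833772 (plus strand, Ctsa), chr7:142387893-142387952 (minus, Ctsd), chrX:134601196-134601255 (minus, Gla) and chr16:44139358-44139417 (minus, Atp6v1a), and the motif starts 13, 99, 228 and 132 bases upstream of the RefSeq start, at 164833773, 142387827, 134601005 and 44139259. GENCODE puts the outermost start of these genes further upstream, and 3 of the 4 windows, all but that of Gla, lie inside the GENCODE gene.
Ctsa: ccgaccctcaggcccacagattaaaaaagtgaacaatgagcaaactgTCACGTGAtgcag
Ctsd: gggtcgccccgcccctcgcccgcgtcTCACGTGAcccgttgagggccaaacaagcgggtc
Gla: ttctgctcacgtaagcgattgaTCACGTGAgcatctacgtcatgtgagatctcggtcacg
Atp6v1a: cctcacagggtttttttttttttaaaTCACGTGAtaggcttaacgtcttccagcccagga

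Of the 4, Ctsd, Ctsa and Atp6v1a were higher in the knockout of both pairs. In the whole lysosome list 18 of 25 measured genes were higher at 1 month and 25 of 28 at 2 months. Any part of the motif in these values was not tested. Ctsa, a protective protein of the lysosome, had 74, 112, 197 and 491 UMIs. Gla, an alpha-galactosidase, had 4, 19, 23 and 57, too few at 1 month to count as measured.

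Lipid-handling genes stood higher with more exceptions. Of 18 measured at 1 month 13 were higher (median 0.50), and of 23 at 2 months 18 (median 0.50). Fabp5, a fatty acid carrier on chr3:10012548-10016607, had 46, 314, 300 and 1026 UMIs, found in 7 of 34, 16 of 36, 13 of 59 and 26 of 54 cells. The log2 ratios were 2.76 and 1.27. The richest cell gave 63.1% of the UMIs in the 1-month knockout, without which that ratio was 1.72, and 66.3% in the 2-month wild type. Kept cells outside the members stood at 22.1, 20.7, 7.27 and 23.2 CPM of Fabp5, against 277, 1890, 606 and 1464 in the C1q-bearing cells. After thinning, 3 of 29, 10 of 24, 6 of 48 and 21 of 51 cells had a Fabp5 UMI, the higher share in the knockout of each pair. Apoe, the apolipoprotein that macrophages secrete, was the most abundant at 4169, 4379, 20409 and 34577 UMIs and differed little (0.07 and 0.26). Trem2, a receptor for lipids on phagocytes, had 80, 108, 494 and 914 UMIs (0.43 and 0.39).

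A few lipid genes were lower at 1 month and not at 2 months. Cd36, a scavenger receptor for oxidised lipoproteins, had 100, 15, 195 and 528 UMIs, log2 ratios of -2.70 and 0.93. Pltp, the phospholipid transfer protein, had 127, 22, 87 and 133 UMIs (-2.50 and 0.11). Without the cluster led by Spp1 and Gpnmb the 1-month list median was -0.27, so its sign at 1 month rested on those cells.

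The iron list was even at 1 month, with 4 higher and 4 lower of 8 measured (median 0.27, or -0.15 with equal weights), and 9 of 11 were higher at 2 months (0.44, or -0.11 without members that held 2 markers of another cell type). Fth1, a chain of the iron store ferritin, had log2 ratios of 0.72 and 0.44, and -0.089 at 1 month with equal weights. Ftl1, the other chain, had 0.69 and 0.61, or 0.23 and 0.10 with equal weights. Igf1, a growth factor of tissue macrophages on chr10:87858265-87937042, had 29, 60, 149 and 408 UMIs in 16, 21, 38 and 40 cells (1.03 and 0.95). The growth factor list had 8 of 11 measured genes higher at 1 month (median 0.63) and 11 of 17 at 2 months (0.30), against 54.1% and 49.5% of all genes. Kept cells outside the members also had 17 of 24 higher (0.33) and 20 of 25 (0.91). Fibroblast-marker cells had 17 of 22 (0.30) and 12 of 23 (0.03).

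Genes of antigen presentation by MHC class II stood lower in the C1q-bearing knockout cells at 1 month. The MHC class I list did not, with 3 genes higher and 4 lower at 1 month (median -0.06, or 0.31 with equal weights). Of 9 measured genes of the MHC class II list 8 were lower and 5 of them at least 2-fold (median -1.22). Over all genes of these cells 54.1% were higher and 11.7% were at least 2-fold lower. At 2 months 6 of 9 were lower (median -0.30, against 49.5% of all genes higher). Cd74, the chaperone of class II molecules, had 3270, 1667, 2195 and 2360 UMIs (-0.97 and -0.40). H2-Ab1, a class II chain, had 1142, 482, 844 and 969 UMIs (-1.25 and -0.30), with 41.2% and 37.8% of the 1-month UMIs in the richest cell of each library. Without the 5% of members with the most UMIs the 1-month median was -0.27, and with equal weights the 2-month median was 0.10. In fibroblast-marker cells 5 class II genes were higher and 3 lower at 1 month (0.36), and 1 and 5 at 2 months (-4.58). Kept cells outside the members had 11 of 11 lower at 1 month (-0.28) and 7 of 11 at 2 months (-0.44). A lean downwards was thus also present there, and the class I list was lower in 11 of 11 at 1 month (-0.63). In the C1q-negative members the class II list leaned upwards at 1 month, 7 of 10 higher (median 0.48), with Cd74 at 5080 and 5431 UMIs (0.60). Dendritic cell markers, whose cells are rich in class II, stood at 307 and 102 CPM in the C1q-bearing members of 1 month (51 and 17 UMIs) and at 337 and 531 CPM in the C1q-negative ones. In these C1q-bearing pools only 4 and 3 of the 10 markers had UMIs. Flt3, Zbtb46, Xcr1, Clec9a and Ccr7 had 0 in both, and 33 of the 51 wild-type UMIs lay in 2 cells. A cluster led by Cd209a, a lectin of dendritic cells, held 11, 9, 1 and 4 members. It had 3813 CPM of the monocyte list and 1405 CPM of the dendritic cell list. The part of dendritic cells in the result was not tested, nor was the difference between C1q-bearing and C1q-negative members.

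Immediate early genes, which are switched on within minutes of a stimulus and also during tissue digestion, were lower at 1 month in 18 of 20 (median -1.69). Of these, 14 were at least 2-fold lower, beside 11.7% of all genes. At 2 months 15 of 20 were lower (median -0.43, or 0.072 without members that held 2 markers of another cell type). Jun had 206, 25, 282 and 397 UMIs in 9, 6, 34 and 40 cells (-3.02 and -0.01), and Dusp1, a phosphatase of the same response, had 199, 22, 215 and 171 (-3.15 and -0.83). The fibroblast-marker cells had medians of -0.65 and -0.10 for the same list, and the other kept cells -0.31 and 0.60. Nfkbia, the inhibitor of NF-kappa-B that the pathway itself induces, had 40, 29, 176 and 87 UMIs (-0.46 and -1.51). Cd14, the co-receptor for bacterial lipopolysaccharide, had 173, 38, 161 and 125 UMIs (-2.17 and -0.87). The part of digestion in these values was not tested.

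Mitochondrially encoded genes were lower in 9 of 11 measured at 1 month (median -0.22) and in 11 of 13 at 2 months (-0.48). They summed to 27294, 22647, 52500 and 36291 CPM. The nuclear genes of the same respiratory chain did not share that direction, with 15 of 19 genes of complexes II to IV higher at 1 month (0.37) and 16 of 25 at 2 months (0.10). ATP synthase genes were higher in 14 of 16 (0.31) and 11 of 16 (0.11). Fibroblast-marker cells gave -0.11 and -0.34 for the mitochondrially encoded list.

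Other lists are given by their counts. Complement genes other than the C1q chains of the rule were lower in 5 of 6 at 1 month (median -0.65, but 0.31 without the 5% of members with the most UMIs and 0.38 with equal weights) and in 6 of 10 at 2 months (-0.10). Inflammatory cytokines and NF-kappa-B targets were lower in 4 of 4 at 1 month (-1.52) and in 7 of 12 at 2 months (-0.38). Chemokines and their receptors were lower in 9 of 12 (-0.72) and in 7 of 15 (0.01). Receptors for dying cells and scavenger receptors were higher in 6 of 12 (-0.06) and in 12 of 19 (0.11). Glycolysis genes were higher in 8 of 10 at 1 month (0.56) and in 7 of 17 at 2 months (-0.05). Cholesterol synthesis genes, measured in number at 2 months, were higher in 4 of 5 (0.97), with Msmo1 at 10 and 37 UMIs and Hmgcs1 at 9 and 32. Proliferation genes were lower in 4 of 4 at each age (-0.83 and -0.41), but the 4 measured were Hmgb2, Tubb5, Stmn1 and Pcna, and Mki67, the usual mark of dividing cells, had 0, 0, 1 and 1 UMIs. Alternative settings turned the sign of 20 of the 44 list medians in C1q-bearing members, 5 of them among the 24 of at least 0.3 in size, so no direction is read from the smaller medians.

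**Figure D5:**
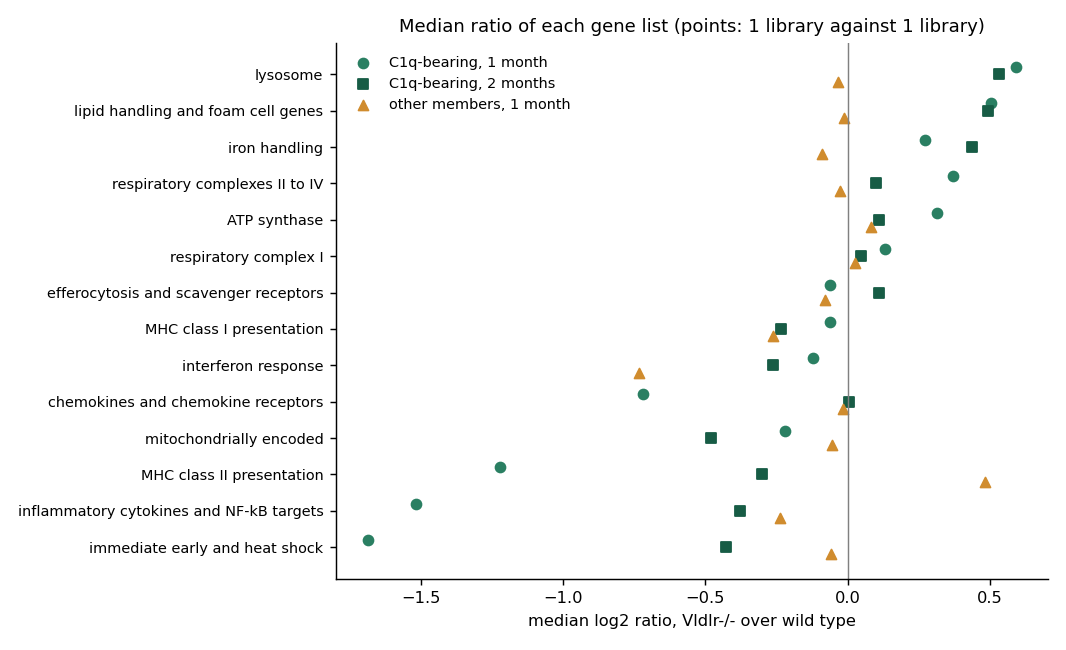
Median log2 ratio, knockout over wild type, of each gene list in C1q-bearing members at 1 month (circles) and 2 months (squares) and in the other members at 1 month (triangles), with 14 lists in rows and a line at 0. The lysosome list lies at 0.59 and 0.53 in C1q-bearing members, and the immediate early list at -1.69 and -0.43.

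Genes that reached 2-fold on the same side in both pairs are given by size. Gdpd3, a glycerophosphodiester phosphodiesterase that makes lysophosphatidic acid, on chr7:126766334-126775649, led the higher genes of the C1q-bearing members and stood behind Ctse in all members. In all members it had 82, 351, 16 and 168 UMIs in 50, 81, 11 and 44 cells, log2 ratios of 2.52 (2.18 to 2.89) and 2.97 (2.27 to 3.85). In C1q-bearing members it had 1, 88, 5 and 157 UMIs in 1, 22, 5 and 40 cells. It was also higher in the knockout among kept cells outside the members (4.76 and 2.92), at 3.68, 101, 1.42 and 10.9 CPM, against 6.03, 530, 10.1 and 224 CPM in C1q-bearing members. Pld3, an exonuclease of the lysosome, had 36, 95, 93 and 320 UMIs in C1q-bearing members (1.39 and 1.28), and Syngr1, a synaptic-type vesicle protein, had 45, 106, 128 and 548 (1.23 and 1.59). Ctse, which encodes cathepsin E, had 6, 29, 8 and 73 UMIs in all members (2.61 and 2.73). Hebp1, a haem-binding protein, had 11, 35, 22 and 70 (2.06 and 1.27). Outside the members the ratios were 1.60 and 1.84 for Ctse and 0.99 and 0.66 for Hebp1. Sparc, a secreted matrix-binding protein, had 25, 115, 171 and 468 UMIs in C1q-bearing cells but sat in 7, 16, 11 and 10 cells, so its level rested on few cells.

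Lower genes included neighbours on chromosome 7. Trim12a (chr7:104299894-104315466), Trim30d (chr7:104470014-104507849) and Trim34a (chr7:104244457-104262234) belong to a cluster of near-identical family members whose reads the counting may split, so the values are uncertain. In all members Trim12a had 81, 0, 24 and 0 UMIs, Trim30d 67, 5, 54 and 4, and Trim34a 44, 4, 14 and 2. Only Trim30d had enough UMIs in both pairs (-3.19 and -3.98), while Trim12a and Trim34a were measured at 1 month alone. In the other kept cells the log2 ratios at 1 month were -5.83 for Trim12a, -6.60 for Trim30d and -3.22 for Trim34a. Sh3bgrl3, a small thioredoxin-like protein, had 1904, 650, 481 and 263 UMIs in 135, 98, 56 and 48 members (-1.12 and -1.25); other kept cells gave -1.02 and 0.23. Gsr, glutathione reductase, had 688, 99, 112 and 68 UMIs (-2.36 and -1.10), and all 688 of the wild-type UMIs at 1 month lay in C1q-negative members, while C1q-bearing members had 0, 21, 36 and 64. Retnla, a marker of alternative activation, had 416, 0, 79 and 0 UMIs, at least 103-fold lower at 1 month and at least 34.3-fold lower at 2 months (a count of 0 was set to 3 counts per library). These UMIs came from 5 cells and 1 cell, so the result rests on 6 cells. Outside the members, kept cells of the 2-month knockout held 205 Retnla UMIs, 203 of them in 1 cell, and those of the 2-month wild type held 2, so at 2 months the direction turns on which single cell met the marker rule.

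Some genes of activated phagocytes rested on few C1q-bearing cells, and Spp1 also differed in sign between the ages. Spp1, osteopontin, an adhesive and cytokine-like protein of activated phagocytes, had 58, 285, 390 and 42 UMIs in 4, 7, 11 and 9 cells, log2 ratios of 2.29 and -3.70. Without the cell richest in it the ratios were 0.56 and -2.56, and without members that held 2 markers of another cell type the 2-month ratio was 1.63. Kept cells outside the members held 95.6, 185, 116 and 246 CPM of Spp1, and the 2-month knockout members, at 59.9 CPM, lay below that. Gpnmb, a glycoprotein of lipid-loaded phagocytes, had 56, 272, 235 and 491 UMIs in 4, 9, 12 and 26 cells (2.27 and 0.56), and without its richest cell the 1-month ratio was -0.05. Lgals3, galectin 3, had 143, 395, 455 and 880 UMIs (1.46 and 0.45), or 0.30 and 0.06 without its richest cell. Cd9, a tetraspanin, had 51, 174, 320 and 662 UMIs (1.76 and 0.55) and was found after thinning in 6 of 29, 11 of 24, 14 of 48 and 25 of 51 cells.

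In the C1q-negative members, interferon-response genes were lower in the 1-month knockout in 19 of 21 measured genes (median -0.74, 6 at least 2-fold lower, against 42.6% of all genes higher). Of 6594 genes measured in these cells at 1 month, 243 were called, 3.69%, with 90 higher (1.36%) and 153 lower (2.32%). Oasl2, an oligoadenylate synthetase-like protein, had 128 and 35 UMIs in wild type and knockout (-1.36). Isg15, a ubiquitin-like modifier, had 224 and 65 UMIs (-1.28), but -0.25 without its richest cell. Ifitm3, an abundant membrane protein that blocks viral entry, had 5426 and 3619 UMIs (-0.08), so the most abundant gene of the list was level. Fibroblast-marker cells gave a median of -0.58 and the other kept cells -0.49 for this list at 1 month, beside a median over all genes of 0.03 and 0.10. C1q-bearing members gave -0.12 with 6 of 8 lower, and between -0.25 and 0.70 under other settings. Rod genes were higher in the C1q-negative knockout members of 1 month in 7 of 7, 172 and 312 CPM, with 2 or more of them found in 40 of 103 and 62 of 75 cells, and red blood cell genes stood at 215 and 364 CPM. In kept cells outside the members these lists stood at 4340 and 14993 CPM, and at 6175 and 10823. Their part in the result was not tested. Plac8 was lower too in the C1q-negative cells, 4407 and 2164 UMIs (-0.53), and Chil3, a lectin of inflammatory monocytes, had 328 and 609 UMIs. In all members at 2 months Chil3 had 121 and 0 UMIs, at least 52.5-fold lower, in a group with 9 and 6 C1q-negative cells.

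Clustering all members by their transcripts gave 9 clusters, and 364 of 376 cells, 96.8%, lay in a cluster whose majority shared their C1q state. The C1q genes were not left out of the clustering, so this agreement is a description and no separate check of the split. A cluster is described by its leading genes, and differences in their numbers between libraries are not results. A monocyte-like cluster led by genes that include Vcan, Ly6c2 and Chil3 held 26, 18, 8 and 0 cells and UMIs of 10 of the 10 monocyte markers, and another of C1q-negative cells was led by Cd300e, G0s2 and Ear2 (59, 37, 2 and 1). C1q-bearing cells lay in clusters led by Cbr2, Pf4 and Igfbp4 (21, 14, 11 and 4 cells), by Mmp12, Anpep and Mmp14 (0, 0, 21 and 29), by Ccl8, Iigp1 and C4b (3, 3, 20 and 16), and by Nav3, Slc1a3 and Sall1 (0, 0, 5 and 6). The Nav3 cluster had UMIs of 10 of the 10 microglia genes, at 6971 CPM, with Sall1 in 63.6% of its cells. A cluster led by Cox6a2 also had 10 of 10, at 5080 CPM. Those led by Cbr2, Mmp12 and Ccl8 stood at 1810, 1851 and 2182 CPM. Whether any of these cells are microglia was not tested. The cluster led by Cox6a2, Spp1, Gpnmb, Cst7 and Fabp5 held 5, 17, 0 and 0 cells and is the one whose removal moved the lysosome and lipid lists at 1 month. Since most clusters belong to 1 age, a cluster may be the libraries of that age rather than a kind of cell.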

How the data were processed

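Single cells of RPE and choroid were captured on the 10x Chromium, 1 library per genotype and age. The deposited matrices hold raw UMI counts per gene and barcode, unnormalized; per the file headers they were made with Cell Ranger 6.0.2 (1 month) and 7.0.1 (2 months), while, per the submitters' processing notes, the versions were Cell Ranger 3.0 and Seurat 4.0, on mm9. Whether intronic reads were counted, or doublets removed, is not stated in the labels or headers. No doublets were removed here; leaving out members with 2 markers of another cell type, and those of the top 5% of UMIs, were alternatives.

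Counts were summed over members per library, scaled to CPM, and compared as log2 ratios with 0.5 counts added to each side. A gene needed 30 UMIs over both libraries of the pair, and a 2-fold ratio was called. Ratios have conditional exact Poisson intervals, shares exact Clopper-Pearson intervals, all at 95%, and both cover counting error only. Each group is 1 library, so there is no test. Fold changes of a gene at 0 were set against 3 counts per library.

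Members and lists were chosen with earlier results of these data known. The split by C1q, naming within it, the leave-out of clusters and of single cells, and the motif TCACGTGA were chosen after the values had been seen. Named genes were those 2-fold higher, or 2-fold lower, in both pairs (up to 10 per direction, by the smaller ratio), the 6 with the largest ratio per age and direction found in at least 5 cells of the higher library, and the 4 list members with the most UMIs. For the first 2 kinds the level in members had to be at least 0.5 of that in other kept barcodes, and mitochondrial, ribosomal, sex-linked and predicted genes were not named. Genes outside these rules (Asah1, Atp6v1a, Ctsa, Ctsc, Ctsl, Gla, Isg15, Lamp1, Lipa, Oasl2, Pltp, Trem2) were named after their values had been seen, and a few genes are not reported here.

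Members were clustered with scanpy 1.11.5 (2000 variable genes, 20 components, 15 neighbours) and leidenalg 0.10.2. Coordinates came from GENCODE M21 on GRCm38, where 32158 of 32285 gene IDs matched. In simulated counts for 7081 genes at 1 month, 100% of genes raised 4-fold and 85.0% of those lowered 4-fold were called, beside 0.945% of unchanged genes. For 6130 genes at 2 months these were 100%, 69.0% and 1.15%. The counts were drawn from the summed profile of all members, without differences between cells. They therefore give no rate of false calls for the real cells or for the smaller C1q-bearing pools.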

Additional observations from a re-analysis of the deposited data

Results flagged for a closer look

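A few genes stood on opposite sides in the knockout at 1 and 2 months; the difference between the ages was not tested, because each age has 1 library per genotype, and age and counting software cannot be told apart. In all members Chil3 had a log2 ratio of 1.32 at 1 month and -8.31 at 2 months, where the knockout had 0 UMIs and the wild type 121; the second value comes from the 0.5 counts added, and against 3 counts the knockout was at least 52.5-fold lower. Without members that held 2 markers of another cell type the 1-month ratio was -0.81, the same side as at 2 months. In C1q-bearing members Spp1 had 2.29 and -3.70, but 0.56 at 1 month without its richest cell and 1.63 at 2 months without members that held 2 markers of another cell type. Ccr2, the chemokine receptor of inflammatory monocytes, had -1.40 and 4.45, from 133, 50, 1 and 46 UMIs in 7, 2, 1 and 6 cells, and without its richest cell -0.80 and 3.91.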

How the results depend on the processing

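No paired analysis was possible because each group is 1 library. The cause of the shifts below was not tested, and depth limits them, since C1q-bearing cells of 1 month held 165970 and 166159 UMIs. Genes 2-fold apart at 1 month (283) were 475 without members holding 2 markers of another cell type, 512 with each cell weighted equally, 77 after thinning, 849 at a minimum of 10 UMIs and 48 at 100. At 2 months (526) they were 68 thinned, 1474 at 10 UMIs and 133 at 100. The 31 of both ages were 19 without the top 5% of UMIs, 59 without members with other markers, 5 thinned, 95 at 10 UMIs, 9 at 100 and 20 in C1q-bearing members. Lists above the median of all genes went from 12 to 6 at 1 month (thinned) and from 13 to 7 at 2 months (equal weights). Member shares were 4.91% and 3.46% at 1 month with at least 4 markers, and 5.87%, 1.48%, 2.30% and 3.42% without members with other markers. The C1q-bearing share was 86.8% and 90.0% at 2 months without thinning. A sign change under some setting was found for 20 of 46 list medians in all members and 20 of 44 in C1q-bearing members. Of those at least 0.3 in size (13 and 24), 2 and 5 turned. They were, in all members, resident macrophage genes at 1 month (0.40 to -0.077) and alternative activation at 2 months (-0.34 to 0.71), both thinned. In C1q-bearing members these were MHC class II at 2 months (0.10, equal weights), complement at 1 month (0.31 without the top 5%, 0.38 equal weights), iron handling (-0.11) and immediate early genes (0.072) at 2 months without members with other markers, and lipid genes at 1 month (-0.27 without the Spp1 and Gpnmb cluster). Among gene ratios of at least 2-fold, those that turned sign in all members without members with other markers were Arid5a (0.39), Ccn1 (2.17) and Chil3 (-0.81) at 1 month. Without the richest cell, Cxcl2 was 0.78 at 2 months and Gpnmb -0.0073 at 1 month; without the top 5% Gpnmb was -0.025 and Slc1a3 -0.16 at 2 months; thinned, Slc15a2 was 1.15 and Smg8 0.42 at 1 month. In C1q-bearing members C3ar1 was 0.19 at 1 month (equal weights). Without the richest cell Cxcl2 was 0.99, Ddit3 2.53, Guca1a 1.39, Klf4 0.35 and Gpnmb -0.05. Without members with other markers Ddit3 was 1.95, Fam57b 0.68, Guca1a 1.63, Spp1 1.63 and Unc119 0.32, and without the top 5% Guca1a was 1.26 and Slc1a3 -0.32. Thinned, Msmo1 was -0.087, Stmn1 0.65 and Uap1l1 -0.21. Of 4990 settings of named genes 3895 kept their value, 1071 moved and 24 reversed, and of 814 of lists 705, 101 and 8.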

Other observations

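Among C1q-bearing members, Vcam1, an adhesion molecule for leukocytes, was lower in the knockout of both pairs, with 29, 11, 138 and 97 UMIs (order: wild type and knockout at 1 month, then at 2 months) and log2 ratios of -1.36 and -1.01. Hfe, a regulator of iron uptake, had 30, 6, 40 and 28 UMIs in 15, 6, 27 and 20 cells (-2.23 and -1.01). Cxcl14, a chemokine, had 0, 5, 2 and 64 UMIs, found in 1 of 59 wild-type cells and 16 of 54 knockout cells at 2 months. C3ar1, the receptor for the complement fragment C3a, had 60, 28, 74 and 187 UMIs (-1.09 and 0.83), and Cx3cr1, the fractalkine receptor, had 111, 86, 92 and 302 (-0.37 and 1.21). Genes of perivascular and connective tissue macrophages were higher in 5 of 11 measured at 1 month (median -0.20) and in 8 of 14 at 2 months (0.14). Genes of macrophage growth and survival were lower in 9 of 12 at 1 month (-0.34) and higher in 9 of 12 at 2 months (0.21). Complex I genes were higher in 21 of 31 (0.13) and in 19 of 37 (0.05). The medians of the perivascular and complex I lists turned sign under other settings at both ages.

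In the C1q-negative members of 1 month, cholesterol synthesis genes were lower in 8 of 9 measured (-0.65) and MHC class I genes in 10 of 11 (-0.26), while lysosome genes were higher in 10 of 25 (-0.03) and lipid genes in 8 of 19 (-0.01). Hspa1b, an inducible heat shock chaperone, had 33 and 108 UMIs in wild type and knockout (2.20). Over all members the interferon list was lower in 19 of 21 at 1 month (-0.81) and in 13 of 15 at 2 months (-0.46). In C1q-bearing members alone it was lower in 11 of 15 at 2 months (-0.26), with 0 genes at least 2-fold lower. At that age fibroblast-marker cells gave -0.13, and the other kept cells gave 0.42 with 15 of 21 higher.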
